A study of Mus musculus with 24 samples.

Results

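The comparison described here is that of differentiating neural stem and progenitor cells (NSPCs) without functional *Kat6a* with wild-type NSPCs in the same medium. It comprised the 8 libraries that the labels give as differentiating and as homozygous knockout (*Kat6a*-/-, n = 4) or wild type (*Kat6a*+/+, n = 4), out of 24 libraries in the series. NSPCs are dividing cells of the embryonic brain that can be kept in culture and turned towards neurons and glia. They were isolated from the dorsal telencephalon, which forms the cerebral cortex, of C57BL/6 mouse embryos at E12.5 (embryonic day), and both genotypes came from matings of *Kat6a*+/- parents. For differentiation, cells of both genotypes were held for 3 days on poly-L-ornithine and laminin in medium with 1% serum and without growth factors. RNA of polyadenylated transcripts was then sequenced and counted per gene. The null allele is constitutive, lacks internal exons and leads to a premature stop, so that all cells of an embryo carried it and no acute effect of KAT6A loss can be separated from a lasting one. The other 4 differentiating libraries, which were *Kat6a*+/-, are not compared here. They shared in the filter on low counts, the scaling of libraries and the estimate of the spread. In fits with a further term, such as litter, they also shared in the estimate of that term.

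KAT6A (MOZ) is a histone acetyltransferase that works in a complex with a BRPF scaffold protein, ING5 and MEAF6 and acetylates histone H3. It is known for its role at HOX and other developmental genes and in stem cells of the blood and the brain. Withdrawal of growth factors makes NSPCs leave the cell cycle, pass through intermediate progenitor stages driven by proneural factors, and become neurons or glia. Notch signals between neighbouring cells hold part of them back as progenitors.

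Total counts ranged from 15914428 to 23692125 per library. Expression is given below in CPM, the counts scaled by the size of the library and its TMM factor. The litter of a library was read from the first number in the name of its count column, which the sample titles do not give. By that reading, here and below, the 4 *Kat6a*+/+ libraries came from 4 litters. *Kat6a*-/- replicates 1 and 2 came from litter 4633 (with *Kat6a*+/+ replicate 3), replicate 3 from litter 4746 (with *Kat6a*+/+ replicate 4) and replicate 4 from litter 5063. Reads of Y-linked genes lay at 211 to 218 CPM in *Kat6a*+/+ replicates 1, 3 and 4 and at 213 CPM in *Kat6a*-/- replicate 3, but at 0.109 to 1.32 CPM in the other 4 libraries, so sex and genotype were partly confounded, and 2592 genes were called with sex as a term. Correlations of log2 CPM across genes were 0.981 to 0.992 between *Kat6a*+/+ libraries and 0.918 to 0.986 between *Kat6a*-/- libraries. *Kat6a*-/- replicate 2 stood apart from the rest of its group. It had the lowest correlation with its own littermate, replicate 1, and lay at −72.8 on the second principal component, where the other *Kat6a*-/- libraries lay between −17.2 and 19.7. All libraries were given equal weight, and single libraries are shown. The NSPC markers *Vim*, *Sox2* and *Pax6* were present in all 8 libraries, at 4120 to 5380, 400 to 496 and 59.4 to 74 CPM in *Kat6a*+/+ and 6390 to 9180, 249 to 436 and 58.6 to 68.6 CPM in *Kat6a*-/- NSPCs.

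Differentiating *Kat6a*-/- and *Kat6a*+/+ NSPCs differed in the levels of 3097 of 13339 tested genes (23.2%, limma-trend, false discovery rate (FDR) under 0.05). Of these, 1447 were higher (10.8% of tested genes) and 1650 lower (12.4%) in *Kat6a*-/-. The median absolute log2 fold-change of the called genes was 0.72, and it exceeded 1 for 1116 genes (8.37% of tested genes), with 538 of these higher (4.03%) and 578 lower (4.33%). In 3587 genes (26.9%), called or not, all 4 *Kat6a*-/- libraries lay outside the range of the 4 *Kat6a*+/+ libraries. Cell cycle genes and transcription factors of neuron formation were among the genes that fell, while genes of the extracellular matrix, of CDK inhibition, of the interferon response and of the lysosome were among those that rose. Within litter 4633 the difference had the fitted sign for 3096 of the called genes, and within litter 4746 for 3090. These litters hold libraries of the same fit, so this is a description. With litter as a fixed term, which left 3 residual degrees of freedom, 261 genes were called, and 260 of these belonged to the 3097. Leaving out 1 library gave 1903 to 4259 calls. The count moved by more than 1.5 times without *Kat6a*+/+ replicate 1 (1903 genes), *Kat6a*+/+ replicate 3 (1940 genes) or *Kat6a*-/- replicate 3 (2032 genes). It was 4259 without *Kat6a*-/- replicate 2. When libraries were scaled by their totals alone, the share of called genes that were higher was 27% instead of 46.7%, and the log2 fold-change had a median over all genes of −0.133 instead of −0.0081. Unless stated otherwise, each gene that is named below as having risen or fallen was also called in all 8 fits without 1 library. Counts for a gene list are of the fit with all libraries, and list members that are not named need not have been called in those 8 fits. The count of any list is to be read beside the shares over all tested genes, 10.8% called higher and 12.4% lower.

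**Figure D1:**
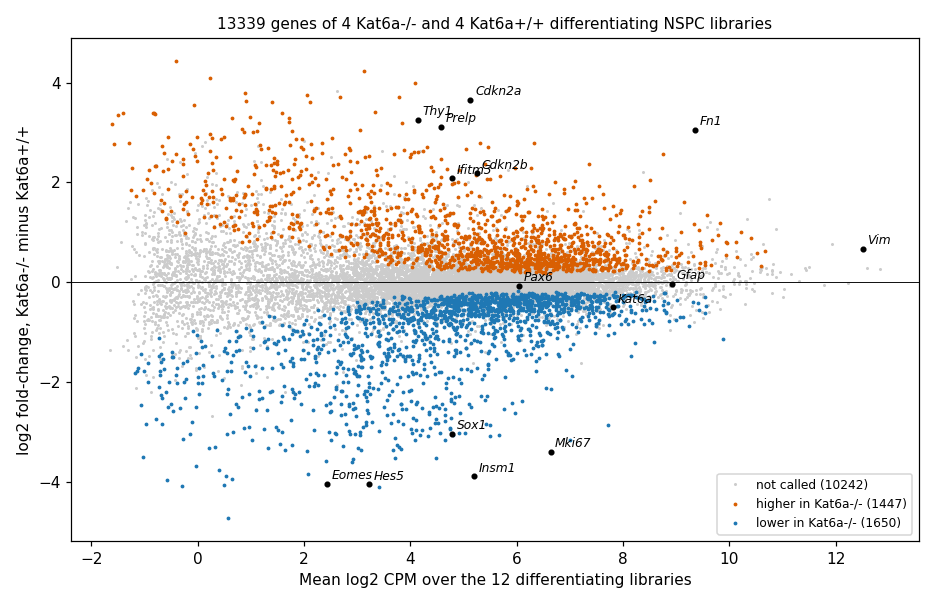
Fitted log2 fold-change (*Kat6a*-/- minus *Kat6a*+/+, vertical axis) against mean log2 CPM over the 12 differentiating libraries (horizontal axis) for 13339 genes. Orange points are the 1447 genes called higher, blue points the 1650 called lower, and grey points were not called. Cell cycle and neurogenic genes such as *Mki67*, *Insm1* and *Eomes* lie near the bottom and *Cdkn2a* and *Fn1* near the top.

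Values of the targeted gene come first. *Kat6a* (gene ID 244349, GRCm39 chromosome 8, 23349545 to 23433275, plus strand) was at 290, 236, 256 and 281 CPM in *Kat6a*+/+ replicates 1 to 4 and at 160, 250, 163 and 187 CPM in *Kat6a*-/- replicates 1 to 4. Replicates 1, 3 and 4 of *Kat6a*-/- lay below all *Kat6a*+/+ libraries and replicate 2 lay within their range. The gene was called (log2 fold-change −0.50, SE 0.13, FDR 0.0184), but was not called without *Kat6a*+/+ replicates 1 or 4 or *Kat6a*-/- replicates 1 or 3 (FDR 0.0521 to 0.0645). Counts over the whole gene include exons that the allele retains, so they do not check the genotype labels. Its paralog *Kat6b* was at 80.2 to 90.6 CPM and 79.5 to 93.5 CPM (log2 fold-change 0.019, SE 0.086, FDR 0.901), with a 95% confidence interval of the log2 fold-change from −0.17 to 0.21.

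Markers of proliferation were lower in all 4 *Kat6a*-/- libraries. Of 60 tested genes of G2 phase and mitosis, 60 were lower in *Kat6a*-/- NSPCs, with a median log2 fold-change of −2.65. *Mki67*, which marks cycling cells (chromosome 7, 135291513 to 135318299), was at 245, 214, 269 and 144 CPM in *Kat6a*+/+ as against 19.7, 8.75, 19.1 and 48.6 CPM in *Kat6a*-/- NSPCs (log2 fold-change −3.40, SE 0.41, FDR 0.000368). The groups did not overlap, and the lowest level was in *Kat6a*-/- replicate 2 and the highest *Kat6a*-/- level in replicate 4. *Top2a*, the topoisomerase that untangles chromosomes before mitosis, fell from 270 ± 57.6 to 34.4 ± 21.3 CPM (mean ± SD, n = 4 each; log2 fold-change −3.16). *Ube2c*, *Kif14*, *Ttk*, *Kif4*, *Cdk1* and *Cdc25b*, which serve the mitotic kinase cascade, the spindle and its checkpoint, had log2 fold-changes of −3.01, −3.54, −2.80, −2.53, −2.28 and −1.87. The nuclease gene *Ankle1* and *Pclaf*, whose product binds the replication clamp, are outside this list and fell as well (log2 fold-changes −3.58 and −3.51).

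Many promoters of mitotic genes carry a cell cycle homology region (CHR) together with CCAAT boxes. The RefSeq promoters of this list (GRCm38.p6, from 250 bases before to 50 bases after the annotated start) were searched for the letters TTTGAA for the CHR and CCAAT for the CCAAT box, on both strands. Both were found in 31 of 50 promoters of 48 matched genes (62%), against 683 of 13748 promoters of 10700 tested genes (4.97%). In the S phase list, 6 of 50 promoters held both (12%). The sequences of 3 mitotic genes that held both within 150 bases before a single annotated start are shown. They place the motifs in genes with large falls, which need not be the largest falls of the list. Both motifs are in capitals on either strand. These matches are letters in a window and were not tested as binding sites.
Mki67, chr7:135716380-135716529 (GRCm38.p6), minus strand, log2 fold-change −3.40: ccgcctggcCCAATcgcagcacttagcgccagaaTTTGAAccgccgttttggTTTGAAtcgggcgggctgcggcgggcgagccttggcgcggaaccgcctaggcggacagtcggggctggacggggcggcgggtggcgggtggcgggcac
Top2a, chr11:99024190-99024339 (GRCm38.p6), minus strand, log2 fold-change −3.16: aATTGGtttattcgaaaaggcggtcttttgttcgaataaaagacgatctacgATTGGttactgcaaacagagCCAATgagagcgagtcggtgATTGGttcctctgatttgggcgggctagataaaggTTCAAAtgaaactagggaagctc
Ube2c, chr2:164769779-164769928 (GRCm38.p6), plus strand, log2 fold-change −3.01: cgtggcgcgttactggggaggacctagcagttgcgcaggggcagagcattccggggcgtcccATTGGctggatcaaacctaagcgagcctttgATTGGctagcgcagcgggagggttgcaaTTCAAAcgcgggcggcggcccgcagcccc

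Genes of DNA replication fell as well. Of 50 tested S phase genes, 47 were lower (median log2 fold-change −1.42). *Mcm2*, a subunit of the replicative helicase, was at 81.4, 72.1, 95 and 61.6 CPM in *Kat6a*+/+ as against 12.6, 11.9, 13.6 and 23.2 CPM in *Kat6a*-/- NSPCs (log2 fold-change −2.37, SE 0.24, FDR 0.000261). *Cdc45*, a helicase partner, and the transcription factor *E2f2* had log2 fold-changes of −2.15 and −3.38. The replication clamp *Pcna* fell less (log2 fold-change −1.06, SE 0.16, FDR 0.00109), and the single-stranded DNA binding protein *Rpa1*, the most abundant of the list, did not pass the test (log2 fold-change 0.046, SE 0.076, FDR 0.702). Of 32 genes of homologous recombination and Fanconi repair, 25 were lower, among them the helicase genes *Blm* (−1.63) and *Brip1* (−2.41) and the nuclease *Exo1* (−2.66), while *Rad50* fell less (−0.28, FDR 0.0141). The mean log2 CPM of the mitotic list differed from its mean in *Kat6a*+/+ by −2.56, −3.45, −2.65 and −1.69 in *Kat6a*-/- replicates 1 to 4 and by −0.46 to 0.29 in single *Kat6a*+/+ libraries. For the S phase list the values were −1.65, −1.97, −1.66 and −1.21, against −0.32 to 0.30. The within-litter medians of the mitotic list were −3.49 in litter 4633 and −2.31 in litter 4746. Under a fixed litter term, 31 mitotic, 12 S phase and 8 repair genes were called lower.

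**Figure D2:**
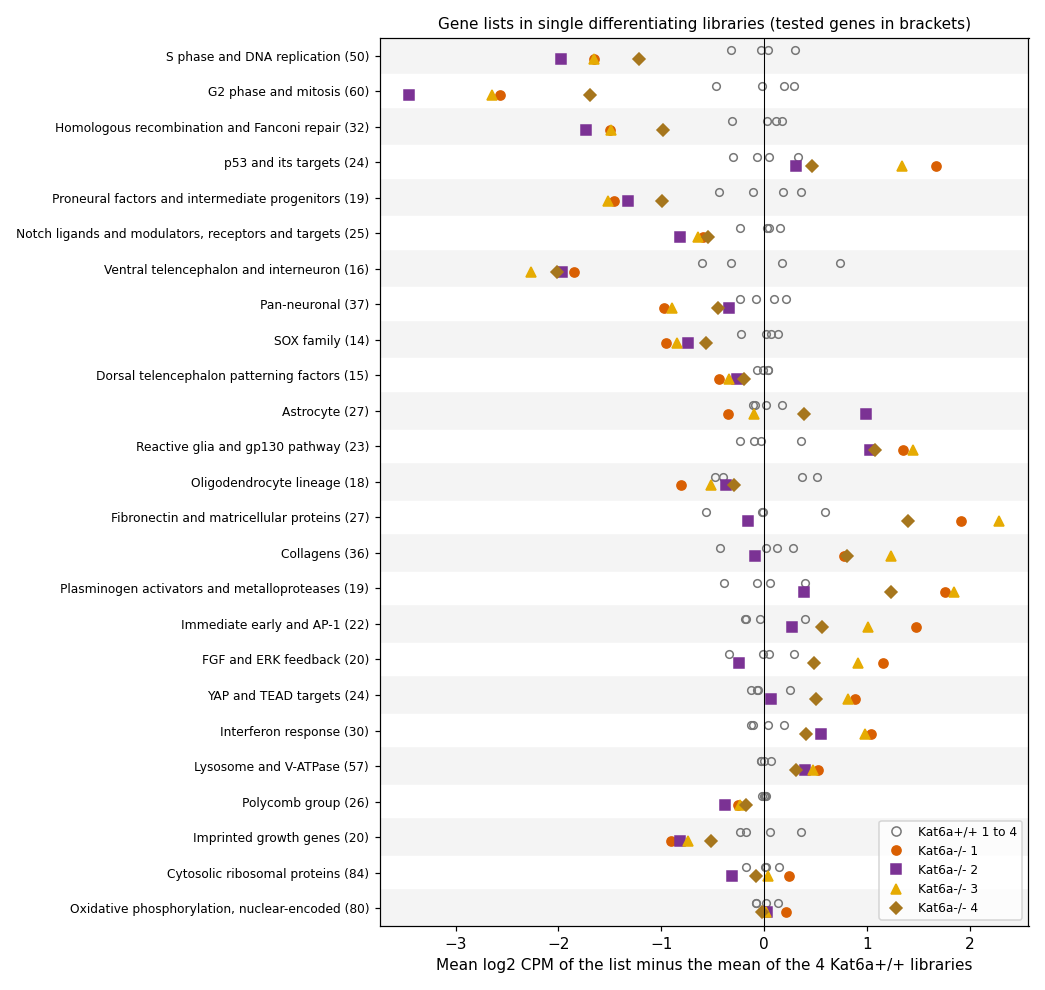
Mean log2 CPM of 25 gene lists in each library, as the difference from the mean of the 4 *Kat6a*+/+ libraries (horizontal axis), with one row per list and the number of tested genes in brackets. Grey circles are *Kat6a*+/+ libraries and coloured symbols are *Kat6a*-/- replicates 1 to 4. Cell cycle, neurogenic, reactive glia, interferon and lysosome lists lie on one side of all *Kat6a*+/+ libraries in every *Kat6a*-/- library, while matrix, FGF and astrocyte lists separate *Kat6a*-/- replicate 2 (purple squares) from replicates 1 and 3.

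Inhibitors of cyclin-dependent kinases moved in both directions. *Cdkn2a*, which encodes p16INK4A and p19ARF (chromosome 4, 89192708 to 89212890), was at 9.04, 21.3, 7.37 and 19.3 CPM in *Kat6a*+/+ as against 229, 175, 178 and 98.8 CPM in *Kat6a*-/- NSPCs (log2 fold-change 3.65, SE 0.35, FDR 0.000217). All *Kat6a*-/- libraries exceeded the highest *Kat6a*+/+ library, and counts per gene do not separate the 2 products. Its neighbour *Cdkn2b*, which encodes p15INK4B (89223204 to 89229276), was at 20.6, 25.6, 16.2 and 21.8 CPM in *Kat6a*+/+ as against 95.2, 122, 81.8 and 83.9 CPM in *Kat6a*-/- (log2 fold-change 2.18, SE 0.20, FDR 0.000217). In contrast, *Cdkn1b* (p27KIP1) fell from 201 ± 7.16 to 109 ± 12.3 CPM (mean ± SD, n = 4 each; log2 fold-change −0.88). Of the 15 D cyclins, inhibitors and pocket proteins tested, 3 rose and 6 fell, with *Cdk4*, the kinase that D cyclins activate, among the latter (−1.02, FDR 8e-04). *Ccnd1* (cyclin D1) was at 24.4, 50.9, 18.4 and 17.7 CPM in *Kat6a*+/+ as against 500, 20.2, 261 and 77.2 CPM in *Kat6a*-/- NSPCs and did not pass the test (log2 fold-change 2.24, SE 0.85, FDR 0.0775), with *Kat6a*-/- replicate 2 within the *Kat6a*+/+ range. With litter as a fixed term, *Cdkn2a* and *Cdkn2b* both had an FDR of 0.0393. *Cdk4* and *Ccnd1* were picked after their values were seen.

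Targets of p53 were higher, but not equally in all libraries. Of 24 tested p53 genes, 11 were higher and 1 lower (median log2 fold-change 0.93). *Cdkn1a* (p21), the p53 target that inhibits CDK2, was at 93.1, 189, 104 and 78.6 CPM in *Kat6a*+/+ as against 955, 230, 594 and 237 CPM in *Kat6a*-/- NSPCs (log2 fold-change 1.94, SE 0.49, FDR 0.0162). *Kat6a*-/- replicates 1 and 3 carried the highest levels, and replicates 2 and 4 lay closer to, but above, the *Kat6a*+/+ range. The death receptor gene *Tnfrsf10b*, *Phlda3* and *Ccng1* rose too (2.56, 1.83 and 1.51). *Trp53* itself (−0.024, FDR 0.949) and *Mdm2* (0.73, FDR 0.0595), its inhibitor and target, did not pass the test. The list mean was 1.67, 0.31, 1.34 and 0.46 in *Kat6a*-/- replicates 1 to 4 against −0.30 to 0.33 in *Kat6a*+/+ libraries, so replicate 2 did not exceed all *Kat6a*+/+ libraries. Without *Kat6a*-/- replicate 2 or 4, 18 and 17 genes were called higher. With litter in the limma fit 0 were called and 12 were higher at an unadjusted p under 0.05.

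The genes that carry progenitors towards neurons were, on average, lower in all 4 *Kat6a*-/- libraries. *Eomes* (TBR2), the marker of intermediate progenitors (chromosome 9, 118307280 to 118315200), was at 24.8, 10.2, 26.6 and 17.7 CPM in *Kat6a*+/+ as against 0.828, 0.628, 1.02 and 1.99 CPM in *Kat6a*-/- NSPCs (log2 fold-change −4.04, SE 0.50, FDR 0.000406). *Insm1*, a factor of delaminating progenitors, was at 171, 51.2, 145 and 82.8 CPM in *Kat6a*+/+ as against 5.03, 5.6, 5.47 and 13.3 CPM in *Kat6a*-/- (log2 fold-change −3.89, SE 0.48, FDR 0.000406). The genotypes did not overlap for either gene, with the highest *Kat6a*-/- value in replicate 4. *Myt1*, which represses Notch targets in new neurons (−3.84), *Mycn* (−3.05), *Ebf3* (−1.14) and *Sox4* (−1.13) fell too, with *Mycn* picked after its value was seen. Among 19 tested proneural and intermediate progenitor genes, 11 were lower (median −1.18). *Neurog2*, at 0.193 to 2.21 CPM in *Kat6a*+/+ as against 0 to 0.419 CPM in *Kat6a*-/-, and *Neurod1*, at 0 to 0.625 CPM in *Kat6a*+/+ as against 0.577 to 1.31 CPM in *Kat6a*-/-, were both near the limit of detection, and neither passed the test (FDR 0.059 and 0.0722). In bulk libraries, fewer cells of a type and less RNA per cell cannot be told apart, here and below. The list mean was −1.46, −1.32, −1.52 and −0.99 in *Kat6a*-/- against −0.44 to 0.36 in *Kat6a*+/+ libraries, and 6 genes were called lower with litter as a fixed term.

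Several ligands and targets of Notch fell. *Hes5*, a Notch target that keeps progenitors undifferentiated (chromosome 4, 155045373 to 155046828), was at 54.5, 11.5, 33.8 and 34.4 CPM in *Kat6a*+/+ as against 0.69, 2.15, 1.5 and 3.27 CPM in *Kat6a*-/- NSPCs (log2 fold-change −4.05, SE 0.54, FDR 0.000572). The ligands *Dll1* and *Dll3* fell from 50.4 ± 17.8 to 8.99 ± 2.59 CPM and from 25.3 ± 16.5 to 1.81 ± 1.09 CPM (mean ± SD, n = 4 each; log2 fold-changes −2.43 and −3.61), and the feedback regulator *Nrarp* by a log2 fold-change of −3.07. *Mfng*, an enzyme that modifies Notch receptors, was lower as well (−4.07, FDR 0.00269), which was picked after its value was seen. The most abundant gene of the list, the Notch ligand *Dner*, did not pass the test (0.24, FDR 0.262). The ligand *Jag2*, named after its value was seen, rose (2.25). In all, 7 of 25 Notch genes fell and 1 rose, with list means of −0.59, −0.82, −0.64 and −0.55 in *Kat6a*-/- and −0.23 to 0.16 in *Kat6a*+/+ libraries.

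Among pan-neuronal genes, 11 of 37 fell and 2 rose. *Dcx* (doublecortin), a microtubule protein of migrating neurons, was at 70.3, 14.9, 43.3 and 28 CPM in *Kat6a*+/+ as against 0.966, 7.75, 1.62 and 7.7 CPM in *Kat6a*-/- NSPCs (log2 fold-change −3.36, SE 0.68, FDR 0.00496). The groups did not overlap, and *Kat6a*-/- replicates 1 and 3 had the lowest levels. The neuronal RNA binding proteins *Elavl4* (−3.28) and *Elavl2* (−1.99), *Nrn1*, a neurite growth factor (−2.95), *Cadps*, which primes vesicles for release (−4.11), and *Dcc*, the netrin receptor (−3.52), fell as well. *Tubb3* (ßIII-tubulin) was at 97, 51.9, 70.7 and 67.9 CPM in *Kat6a*+/+ as against 62.1, 32, 45.5 and 40.4 CPM in *Kat6a*-/- NSPCs, overlapped between the groups and was not called (log2 fold-change −0.68, SE 0.25, FDR 0.0744). *Stmn2*, a tubulin regulator of growing axons, rose, and was at 0.219, 0, 0.144 and 0 CPM in *Kat6a*+/+ as against 1.03, 2.57, 0.961 and 3.91 CPM in *Kat6a*-/- (log2 fold-change 3.39, SE 0.73, FDR 0.00711), and was picked after its values were seen. Of 16 genes of cortical layer identity, 3 fell (6 without *Kat6a*-/- replicate 2), including *Bcl11b* (−2.14) and *Pou3f3* (−0.84), and *Reln* did not change detectably (−0.032, FDR 0.949).

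Regional identity genes fell on the dorsal and on the ventral side. Of 15 dorsal telencephalon factors, 6 fell. Another was called higher with all libraries, and in only 1 of the 8 fits without 1 library, that without *Kat6a*-/- replicate 2. *Emx2* was at 25.6, 21.8, 24.7 and 28.9 CPM in *Kat6a*+/+ as against 12.9, 12.8, 13.2 and 12.2 CPM in *Kat6a*-/- NSPCs (log2 fold-change −0.97, SE 0.12, FDR 0.000329), without overlap. *Otx1* (−1.73) and *Bcl11a* (−2.11) fell, whereas *Pax6* was at 59.4, 74, 61.5 and 66 CPM in *Kat6a*+/+ as against 61, 68.6, 58.6 and 59.2 CPM in *Kat6a*-/- and was not called (log2 fold-change −0.075, 95% confidence interval −0.26 to 0.11, FDR 0.558). Of 16 ventral telencephalon and interneuron genes, 9 fell (median −2.11), from low levels in most cases. *Dlx5* was at 1.24 to 3.75 CPM in *Kat6a*+/+ as against 0 to 0.0601 CPM in *Kat6a*-/- NSPCs (−4.09, FDR 0.00169). *Dlx2* was at 13.3, 2.54, 5.39 and 7.46 CPM in *Kat6a*+/+ as against 1.24, 1.89, 0.721 and 0.449 CPM in *Kat6a*-/- and was not called (log2 fold-change −2.55, SE 0.96, FDR 0.0756). *Meis2*, a TALE homeodomain factor of the ventral forebrain, fell from 172 ± 32.1 to 62.9 ± 20 CPM (log2 fold-change −1.48, SE 0.23, FDR 0.00123; mean ± SD, n = 4 each). Its relative *Pknox1* (−0.68) was also lower, and 6 of 15 TALE genes fell in all. In the fit with litter, 3 dorsal genes were called lower. No ventral or TALE gene was called in that limma fit, where 11 and 6 were lower at an unadjusted p under 0.05.

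SOX factors fell by different amounts. *Sox1*, a SOXB1 factor of neural progenitors (chromosome 8, 12445295 to 12450126), was at 46.2, 70.2, 44 and 81.8 CPM in *Kat6a*+/+ as against 12.3, 4.77, 5.71 and 7.31 CPM in *Kat6a*-/- NSPCs (log2 fold-change −3.03, SE 0.35, FDR 0.000323). Its partner *Sox2* was at 473, 400, 461 and 496 CPM in *Kat6a*+/+ as against 249, 436, 255 and 345 CPM in *Kat6a*-/- (log2 fold-change −0.55, SE 0.16, FDR 0.0316) and was not called without *Kat6a*+/+ replicates 1, 3 or 4 or *Kat6a*-/- replicates 1 or 3 (FDR 0.0751 to 0.104). For *Sox2*, *Kat6a*-/- replicate 2 lay within the *Kat6a*+/+ range. *Sox21* fell (−0.99), and 7 of 14 tested SOX genes did so in all. With litter in the limma fit 0 were called, and 6 were lower at an unadjusted p under 0.05. The count was 11 without *Kat6a*-/- replicate 2 and 4 without *Kat6a*-/- replicate 1, *Kat6a*+/+ replicate 1 or *Kat6a*+/+ replicate 3. Of 23 SOXB1 and radial glia genes, 6 fell, including *Nr2e1* (TLX, −0.76), and 2 rose (1 without *Kat6a*+/+ replicate 1 or 3 or *Kat6a*-/- replicate 1 or 3, and 4 without *Kat6a*-/- replicate 2), including the intermediate filament *Vim* (0.67, FDR 0.00868), so radial glia genes did not fall together. Without *Kat6a*+/+ replicate 1, 3 or 4 or *Kat6a*-/- replicate 1 or 3, 3 of them were called lower.

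**Figure D3:**
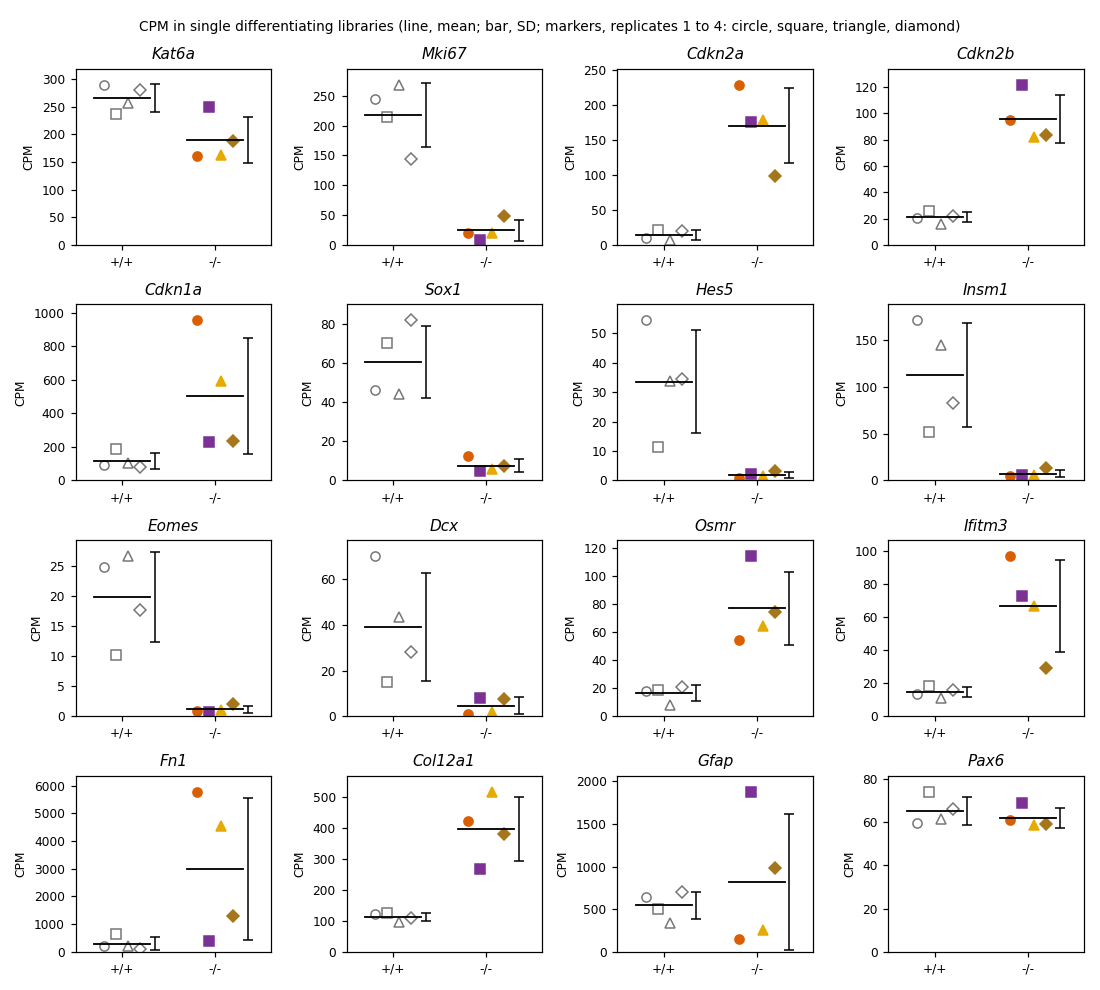
CPM (vertical axes, linear from 0) of 16 genes in single *Kat6a*+/+ (open grey) and *Kat6a*-/- (filled) libraries, with circles, squares, triangles and diamonds for replicates 1 to 4, a line at the mean and a bar of 1 SD. The genotypes do not overlap for *Mki67*, *Cdkn2a*, *Cdkn2b*, *Cdkn1a*, *Sox1*, *Hes5*, *Insm1*, *Eomes*, *Dcx*, *Osmr*, *Ifitm3* and *Col12a1*, while *Kat6a*-/- replicate 2 (purple) lies apart from replicates 1 and 3 for *Fn1* and *Gfap*.

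Glial genes did not move as a block. Of 27 astrocyte genes, 1 rose and 4 fell. These counts depended on the libraries and the test, with 4 higher without *Kat6a*-/- replicate 1, 2 higher and 7 lower without *Kat6a*-/- replicate 2 and 2 higher without *Kat6a*-/- replicate 4, and with 6 and 9 higher by edgeR and DESeq2. *Gfap*, the intermediate filament of astrocytes, was at 640, 498, 338 and 698 CPM in *Kat6a*+/+ as against 148, 1880, 256 and 986 CPM in *Kat6a*-/- NSPCs (log2 fold-change −0.025, SE 0.69, FDR 0.984). *Kat6a*-/- replicates 1 and 3 lay below all *Kat6a*+/+ libraries and replicates 2 and 4 above them, so the mean lay between separate values. *Apoe*, picked after its values were seen, was at 508, 3120, 614 and 1020 CPM in *Kat6a*-/- against 295 to 543 CPM in *Kat6a*+/+ NSPCs and was not called (1.39, FDR 0.0591). The list mean was −0.35, 0.99, −0.094 and 0.39 in *Kat6a*-/- replicates 1 to 4 against −0.10 to 0.17 in *Kat6a*+/+ libraries. *S100b*, a calcium-binding protein of astrocytes, was at 5.15, 5.9, 5.1 and 2.12 CPM in *Kat6a*+/+ as against 32.1, 31.5, 22.6 and 16.8 CPM in *Kat6a*-/-, higher in all 4 *Kat6a*-/- libraries (log2 fold-change 2.51, SE 0.39, FDR 0.00114). *Nfib*, a factor of the gliogenic switch, fell from 390 ± 22.8 to 235 ± 13.8 CPM (mean ± SD, n = 4 each; log2 fold-change −0.73), and *Glul* (glutamine synthetase) had a log2 fold-change of −0.88. In the oligodendrocyte lineage, 6 of 18 genes fell, led by the progenitor receptor *Pdgfra* (log2 fold-change −2.12, SE 0.30, FDR 0.000763), and *Matn4* rose (3.08). Only 2 genes of this lineage were called lower without *Kat6a*+/+ replicate 1 or 3, and 3 without *Kat6a*-/- replicate 1. *Olig2* was at 257, 177, 226 and 184 CPM in *Kat6a*+/+ as against 111, 69.2, 149 and 161 CPM in *Kat6a*-/- (−0.84, FDR 0.0394) and was not called without *Kat6a*+/+ replicates 1, 3 or 4 or *Kat6a*-/- replicates 1 or 2 (FDR 0.0533 to 0.111).

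Genes of the gp130 pathway and of reactive glia were, on average, higher in all 4 *Kat6a*-/- libraries. Of 23 tested, 12 were higher (median 1.19). *Osmr*, the oncostatin M receptor that pairs with gp130, was at 17.9, 18.8, 8.19 and 20.5 CPM in *Kat6a*+/+ as against 54.3, 114, 64.2 and 74.2 CPM in *Kat6a*-/- NSPCs (log2 fold-change 2.25, SE 0.33, FDR 0.00089). The highest level was in *Kat6a*-/- replicate 2. The C/EBP factors *Cebpb* (1.19) and *Cebpd* (1.43), which act downstream of such cytokines, rose with it. The list mean was 1.35, 1.03, 1.45 and 1.08 in *Kat6a*-/- against −0.23 to 0.36 in *Kat6a*+/+ libraries, and the within-litter medians were 1.40 in litter 4633 and 1.25 in litter 4746. Without *Kat6a*+/+ replicate 4 or *Kat6a*-/- replicate 3, 7 genes were called, and with litter as a fixed term 2.

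Interferon response genes were higher, from low levels. Of 30 tested genes 8 rose, and the log2 fold-change was above 0 for 28. *Ifitm3*, a membrane protein that restricts viral entry, was at 13.2, 18.3, 10.9 and 16.1 CPM in *Kat6a*+/+ as against 97.2, 72.8, 67.1 and 29.5 CPM in *Kat6a*-/- NSPCs (log2 fold-change 2.08, SE 0.32, FDR 0.00104). *Ifit3* was at 3.94, 3.52, 2.5 and 1.33 CPM in *Kat6a*+/+ as against 16.4, 14.8, 16.9 and 8.73 CPM in *Kat6a*-/- (log2 fold-change 2.35, SE 0.40, FDR 0.00204). Reads of *Ifit3* and its near-identical neighbour *Ifit3b* (2.37) may have been shared between them in the counting. *Isg15*, picked after its values were seen, was not called (0.53 to 0.92 against 0.367 to 3.1 CPM, FDR 0.366). Leaving out *Kat6a*-/- replicate 3 left 4 genes of the list called, and 5 were called without *Kat6a*+/+ replicate 1, 3 or 4 or *Kat6a*-/- replicate 1. Of 16 genes of MHC class I antigen presentation, 4 rose, among them *Tapbp* (0.59, FDR 0.00176) and *Erap1* (0.71, FDR 0.0053), which load and trim peptides. That count was 2 when any 1 of *Kat6a*+/+ replicates 1, 3 and 4 and *Kat6a*-/- replicates 1 and 3 was left out. With litter in the limma fit, 3 interferon genes and 0 MHC genes were called, and 13 and 3 were higher at an unadjusted p under 0.05.

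Interferon-induced promoters often hold an interferon-stimulated response element (ISRE), searched as GAAANNGAAA and its reverse complement. The ISRE was found in 13 of 28 promoters of the interferon list (46.4%) and in 386 of 13748 promoters of tested genes (2.81%). Called genes with a match within 150 bases before a single annotated start are shown, with the match, of letters only, in capitals. These genes need not have the largest rises. Of these, *Gbp2* was not called without *Kat6a*+/+ replicate 3 or *Kat6a*-/- replicate 3 (FDR 0.051 to 0.0554), and *Bst2* was not called without *Kat6a*+/+ replicates 1, 3 or 4 or *Kat6a*-/- replicates 1, 3 or 4 (FDR 0.0579 to 0.11).
Ifit3, chr19:34583379-34583528 (GRCm38.p6), plus strand, log2 fold-change 2.35: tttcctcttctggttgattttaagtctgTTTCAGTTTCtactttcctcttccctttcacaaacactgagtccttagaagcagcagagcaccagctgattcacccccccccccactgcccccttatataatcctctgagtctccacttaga
Gbp2, chr3:142620513-142620662 (GRCm38.p6), plus strand, log2 fold-change 1.15: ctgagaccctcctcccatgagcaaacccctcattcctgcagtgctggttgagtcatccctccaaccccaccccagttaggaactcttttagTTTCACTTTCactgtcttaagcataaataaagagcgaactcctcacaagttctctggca
Bst2, chr8:71537473-71537622 (GRCm38.p6), minus strand, log2 fold-change 1.01: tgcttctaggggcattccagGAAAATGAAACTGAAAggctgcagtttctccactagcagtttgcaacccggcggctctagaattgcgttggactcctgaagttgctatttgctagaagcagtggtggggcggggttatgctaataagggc

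The list means of extracellular matrix genes were higher in *Kat6a*-/- replicates 1, 3 and 4 than in replicate 2, which did not hold for every gene. *Fn1* (fibronectin) was at 204, 641, 223 and 96.8 CPM in *Kat6a*+/+ as against 5780, 392, 4530 and 1300 CPM in *Kat6a*-/- NSPCs (log2 fold-change 3.05, SE 0.80, FDR 0.018). *Kat6a*-/- replicate 2 lay below *Kat6a*+/+ replicate 2, and the gene was not called without *Kat6a*+/+ replicate 4 or *Kat6a*-/- replicates 1 or 3 (FDR 0.0505 to 0.0557). Of 27 genes of fibronectin and matricellular proteins, 10 rose (median 1.19), with list means of 1.92, −0.16, 2.29 and 1.41 in *Kat6a*-/- replicates 1 to 4 against −0.57 to 0.60 in *Kat6a*+/+ libraries. Without *Kat6a*-/- replicate 2, 20 were called higher, and without *Kat6a*-/- replicate 1 or 3 or *Kat6a*+/+ replicate 4, 4. The count was 6 without *Kat6a*+/+ replicate 1 or 3. The matricellular *Thbs2* (2.36) rose in all 4 libraries. So did *Ahnak* (1.57) and *Ahnak2* (3.61), which the list counts although they encode scaffold proteins and not matrix proteins. *Sparc*, the most abundant gene of the list, was at 2790 to 3960 CPM in *Kat6a*+/+ as against 2840 to 8130 CPM in *Kat6a*-/- and was not called (FDR 0.0837).

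Of 36 collagens, 15 rose and 2 fell. *Col12a1* was at 122, 124, 95.9 and 110 CPM in *Kat6a*+/+ as against 422, 266, 516 and 381 CPM in *Kat6a*-/- NSPCs (log2 fold-change 1.78, SE 0.21, FDR 0.000332), without overlap. *Col1a1*, the major chain of fibrillar collagen, picked after its values were seen, was at 2.41, 16.2, 3.95 and 2.08 CPM in *Kat6a*+/+ as against 177, 9.11, 142 and 100 CPM in *Kat6a*-/- (log2 fold-change 3.99, SE 0.98, FDR 0.014), with *Kat6a*-/- replicate 2 within the *Kat6a*+/+ range. The basement membrane chains *Col4a6* (1.68) and *Col4a5* (1.05) and *Col6a1* (2.89) rose. The number of collagens called higher was 6 without *Kat6a*-/- replicate 1 or 3 or *Kat6a*+/+ replicate 4, with 8 and 9 without *Kat6a*+/+ replicates 1 and 3. Among plasminogen activators, metalloproteases and their inhibitors, 12 of 19 rose. The inhibitors *Timp3* (1.17) and *Serpine2* (1.00) and the protease *Adamts9* (0.83) rose in all 4 libraries, as did *Plau* (urokinase), picked after its values were seen, at 1.04 to 2.12 CPM in *Kat6a*+/+ as against 4.17 to 10.2 CPM in *Kat6a*-/- (2.12, FDR 0.00465). The count was 7 without *Kat6a*+/+ replicate 3. Under a fixed litter term, 1 matricellular, 2 collagen and 1 plasminogen and protease genes were called higher. The within-litter medians of the matricellular list were 0.81 in litter 4633 and 2.64 in litter 4746, and *Kat6a*-/- replicate 2 belongs to the former.

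Genes of growth and stress signals were mixed. Of 22 immediate early and AP-1 genes, 10 rose and 1 fell. *Jun* was at 115, 150, 122 and 124 CPM in *Kat6a*+/+ as against 209, 196, 169 and 176 CPM in *Kat6a*-/- NSPCs (log2 fold-change 0.55, SE 0.098, FDR 0.00237), and *Jund* (0.74) and the survival gene *Ier3* (1.97) rose too, while *Myc* was not called (0.49, FDR 0.0813). Of 24 YAP and TEAD targets, 6 rose and 1 fell, with *Axl*, a receptor tyrosine kinase, at 125 to 138 CPM in *Kat6a*+/+ as against 194 to 212 CPM in *Kat6a*-/- (log2 fold-change 0.64, SE 0.10, FDR 0.00136). Of 20 FGF receptor and ERK feedback genes, 5 rose and 1 fell. *Fgfr3* was the one that fell (−0.59, FDR 0.00973). As for the matrix genes, *Kat6a*-/- replicate 2 differed from the rest of its group in the FGF list, whose mean was 1.16, −0.24, 0.92 and 0.49 in *Kat6a*-/- against −0.34 to 0.29 in *Kat6a*+/+ libraries. Without *Kat6a*-/- replicate 2, 13 FGF and 14 YAP genes were called higher. Without *Kat6a*-/- replicate 1 or 3 or *Kat6a*+/+ replicate 1, 3 or 4, at most 1 FGF and 3 YAP genes were. The AP-1 count was 6 without *Kat6a*+/+ replicate 3. With litter in the limma fit, 0 AP-1, YAP and FGF genes were called, and 13, 6 and 4 were higher at an unadjusted p under 0.05. In the BMP pathway 2 genes rose and 5 of 20 fell, including the receptor *Bmpr1a* (log2 fold-change −0.69, SE 0.13, FDR 0.00286) and the antagonist *Nog* (−1.41). The lower count was 9 without *Kat6a*-/- replicate 2, and 3 without *Kat6a*-/- replicate 1 or 3 or *Kat6a*+/+ replicate 3 or 4. In the Wnt pathway 5 of 27 rose, including the R-spondin receptor *Lgr5* (log2 fold-change 3.63, SE 0.78, FDR 0.00679), and 3 fell, including the feedback inhibitor *Nkd1* (log2 fold-change −1.56, SE 0.17, FDR 0.000276) and the receptor *Fzd10* (−1.81). Without any 1 of the same 4 libraries, 3 Wnt genes were called higher. With litter in the limma fit, 0 BMP genes were called (3 higher and 5 lower at an unadjusted p under 0.05), and 1 Wnt gene was called lower. The counts of BMP genes that rose and of Wnt genes that fell lay near the shares of all tested genes (10.8% higher and 12.4% lower).

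Lysosomal genes were, on average, higher in every *Kat6a*-/- library. Of 57 tested genes of the lysosome and its proton pump, 27 rose (median 0.33), with list means of 0.53, 0.40, 0.47 and 0.31 in *Kat6a*-/- against −0.034 to 0.065 in *Kat6a*+/+ libraries. The cathepsins *Ctsh* (2.42) and *Ctsc* (1.49) rose. *Psap*, the most abundant, was not called (0.17, FDR 0.404). The count depended on scaling and on single libraries. It was 12 when libraries were scaled by their totals alone, 13 without *Kat6a*+/+ replicate 1, 15 without *Kat6a*-/- replicate 3, and 17 without *Kat6a*+/+ replicate 4 or *Kat6a*-/- replicate 1. Under a fixed litter term, 0 were called (limma) and 19 were higher at an unadjusted p under 0.05.

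Among the chromatin regulators listed, more genes fell than rose. Among the 26 Polycomb group genes, whose products silence developmental genes and the *Cdkn2a* locus, 7 fell and 1 rose. *Ezh2*, the H3K27 methyltransferase, was at 92.6, 69.7, 96.9 and 72.7 CPM in *Kat6a*+/+ as against 28.1, 23.4, 30 and 39.9 CPM in *Kat6a*-/- NSPCs (log2 fold-change −1.46, SE 0.17, FDR 0.000364). *Cbx2* (−1.55) and *Suz12* (−0.56) fell and *Cbx6* rose (0.42). Without *Kat6a*+/+ replicate 4, 4 Polycomb genes were called lower. Of 17 genes of the MLL and menin complexes, which methylate H3K4, 4 fell, including *Psip1* (−0.49, FDR 0.00129) and *Kmt2c* (−0.52, FDR 0.00457), with 2 called when any 1 of *Kat6a*+/+ replicates 1, 3 and 4 and *Kat6a*-/- replicate 3 was left out. Within the KAT6 complex, 3 of 8 genes were lower, namely *Kat6a*, *Meaf6* (−0.52, FDR 0.0212) and *Brpf1* (−0.34, FDR 0.0349). *Meaf6* was not called without *Kat6a*+/+ replicates 1, 3 or 4 or *Kat6a*-/- replicates 1 or 3 (FDR 0.051 to 0.0682), and *Brpf1* was not called without *Kat6a*+/+ replicates 1, 2, 3 or 4 or *Kat6a*-/- replicates 2 or 4 (FDR 0.0571 to 0.0831). With litter in the limma fit, 2 Polycomb genes, 0 MLL genes and 0 KAT6 genes were called, where 7, 7 and 1 were lower at an unadjusted p under 0.05. Among 10 other nuclear acetyltransferases, *Hat1*, which acetylates new histones, fell (−0.64, FDR 0.00422) and *Kat2b* rose (0.38, FDR 0.00877).

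HOX genes, textbook targets of KAT6A and of Polycomb silencing, did not pass the filter on low counts. In raw counts, 27 of 39 HOX genes were at 0 in all 8 libraries, and the rest had 2, 0, 1 and 1 counts in *Kat6a*+/+ replicates 1 to 4 and 85, 83, 47 and 18 counts in *Kat6a*-/- replicates 1 to 4. Of the 233 counts in *Kat6a*-/- libraries, 216 lay in the *Hoxa* cluster. A count of 0 allows up to 3 counts per library, so all 4 *Kat6a*-/- libraries exceeded that limit. The limit covers counting error only, and the HOX counts amounted to at most 5.29 CPM of total counts. Without the filter, 5 HOX genes were called higher (limma). Of these, *Hoxa2*, *Hoxa3*, *Hoxa4* and *Hoxa5* (FDR 0.0199 to 0.0403) had 0 counts in all *Kat6a*+/+ libraries and in *Kat6a*-/- replicate 4. Among the 8 libraries, they entered that fit only through the group where they were high, so these calls are a description only. *Kat6a*-/- replicate 4 had 6 *Hoxa* counts, against 46 to 83 in the other *Kat6a*-/- libraries. The strand setting of the counting was not given, so antisense transcripts of the cluster cannot be told apart from the genes.

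Imprinted genes moved in both directions. Of 20 tested, 5 fell and 2 rose (1 without any 1 of the *Kat6a*+/+ libraries or *Kat6a*-/- replicate 3). Over all tested genes, 12.4% were called lower and 10.8% higher, so the count that rose lay near the share of all genes. *Peg3* (chromosome 7, 6706882 to 6733468), a paternally expressed zinc finger gene, was at 373, 419, 572 and 424 CPM in *Kat6a*+/+ as against 141, 211, 138 and 150 CPM in *Kat6a*-/- NSPCs (log2 fold-change −1.48, SE 0.15, FDR 0.000261), and its neighbour *Usp29* fell with it (log2 fold-change −2.43, SE 0.28, FDR 0.000324). *Nnat* (neuronatin), picked after its values were seen, fell, with 267 to 660 CPM in *Kat6a*+/+ as against 29.2 to 114 CPM in *Kat6a*-/- (−2.86, FDR 0.000736). *Ndn* (necdin) rose (1.14, FDR 0.000473), and *Igf2*, at 1.04 to 2.55 CPM in *Kat6a*+/+ as against 0.276 to 1.67 CPM in *Kat6a*-/-, was not called (FDR 0.453). Leaving out *Kat6a*-/- replicate 2 gave 9 imprinted genes called lower, and leaving out *Kat6a*+/+ replicate 3 or *Kat6a*-/- replicate 3 gave 3.

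Genes of protein synthesis and energy supply stayed close to 0 as groups. Of 84 cytosolic ribosomal protein genes, 0 were called by limma, edgeR or DESeq2, and 3 were lower at an unadjusted p under 0.05 in limma (median −0.013). However, limma called 3 of them lower without *Kat6a*+/+ replicate 2 and 1 lower without *Kat6a*-/- replicate 3, and quality weights gave 6 higher and 4 lower. List means were 0.24, −0.32, 0.034 and −0.075 in *Kat6a*-/- against −0.17 to 0.15 in *Kat6a*+/+ libraries, with *Kat6a*-/- replicates 1 and 2 outside on opposite sides. Of 80 nuclear genes of oxidative phosphorylation 1 rose (median 0.045), of 78 mitochondrial ribosomal proteins 1 rose and 2 fell (median −0.03), of 36 ribosome biogenesis genes 2 fell, and of 34 genes of cholesterol and fatty acid synthesis 3 fell. These small counts moved with the setting. Among the 8 fits without 1 library, oxidative phosphorylation genes were called higher only without *Kat6a*-/- replicate 2 (3 genes) and *Kat6a*-/- replicate 4 (1 gene). A mitochondrial ribosomal gene was called higher only without *Kat6a*+/+ replicate 2 or *Kat6a*-/- replicate 4, while 6 such genes were lower without *Kat6a*-/- replicate 2, and 3 without *Kat6a*+/+ replicate 2 or *Kat6a*-/- replicate 4. Of the ribosome biogenesis genes, limma called 0 without *Kat6a*+/+ replicate 1, 3 or 4 or *Kat6a*-/- replicate 3 (4 or 5 lower at an unadjusted p under 0.05), and 1 was called without *Kat6a*-/- replicate 1. When libraries were scaled by their totals alone, 4 cytosolic ribosomal genes (median −0.14), 16 mitochondrial ribosomal genes (median −0.15), 5 ribosome biogenesis genes and 1 oxidative phosphorylation gene were called lower. *Acaca*, which makes the building block of fatty acids, was among the cholesterol and fatty acid genes that fell in the fit reported here (−0.40, FDR 0.00286). Of that list, 1 gene was called lower without *Kat6a*+/+ replicate 1 or 3 or *Kat6a*-/- replicate 3. Of 30 hypoxia and glycolysis genes, 8 rose and 2 fell. They included the peptide hormone *Adm* (log2 fold-change 3.62, SE 0.67, FDR 0.00307), the clock regulator *Bhlhe40*, tight at 37.9 to 47.7 CPM in *Kat6a*+/+ as against 70.1 to 81.1 CPM in *Kat6a*-/- (log2 fold-change 0.84, SE 0.092, FDR 0.000283), and the glycolytic *Pfkp* (1.45). The number that rose was 5 without *Kat6a*-/- replicate 1. Of 27 ATF4 and amino acid stress genes, 3 rose, including the transporter chain *Slc3a2* (0.87, FDR 0.00211), and 2 fell. These counts lay near or below the shares of all tested genes (10.8% higher and 12.4% lower). Only 1 ATF4 gene was called higher by limma, and 0 lower (3 to 5 at an unadjusted p under 0.05), without *Kat6a*+/+ replicate 1, 3 or 4 or *Kat6a*-/- replicate 3, as against 4 in each direction without *Kat6a*-/- replicate 2. Only 1 was called higher without any of *Kat6a*+/+ replicates 1, 3 and 4 and *Kat6a*-/- replicates 1 and 3.

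Genes of adhesion and excitability were mixed. Clustered protocadherins, whose counts are uncertain because isoforms share exons, had 2 genes higher and 2 lower of 46 (median −0.012), with 1 higher without any 1 of the *Kat6a*+/+ libraries or *Kat6a*-/- replicate 1 or 4, and with 0 lower without *Kat6a*+/+ replicate 1, 3 or 4 and 1 lower without *Kat6a*+/+ replicate 2 or *Kat6a*-/- replicate 1 (limma). Among 10 delta protocadherins, 3 rose, including *Pcdh9* (log2 fold-change 1.12, SE 0.14, FDR 0.000465), with 2 without *Kat6a*+/+ replicate 4 or *Kat6a*-/- replicate 1 or 3, and 1 fell, a call that was absent without *Kat6a*+/+ replicate 1 or 3 or *Kat6a*-/- replicate 1 or 3. *Lrrtm1*, a postsynaptic adhesion molecule, fell (−2.21). Axon guidance genes rose and fell in like numbers (8 and 10 of 65), with *Plxnd1* higher (log2 fold-change 1.68, SE 0.26, FDR 0.00103) and *Sema6c* lower (−0.90). Both counts moved with single libraries, with 2 higher and 6 lower without *Kat6a*-/- replicate 1 and 14 higher and 16 lower without *Kat6a*-/- replicate 2. They were 2 and 6 without *Kat6a*+/+ replicate 1 and 2 and 5 without *Kat6a*+/+ replicate 3, and 3 and 2 were higher without *Kat6a*+/+ replicate 4 and *Kat6a*-/- replicate 3. Voltage-gated channels were likewise divided (8 higher and 10 lower of 73), with the calcium channel *Cacna1h* (−0.95) and the potassium channel *Kcnc1* (−0.83) lower. Over all tested genes, 10.8% were called higher and 12.4% lower, so the counts of axon guidance genes and channels lay near the share of all genes. Of 30 glutamate and GABA receptors, 6 rose, including the AMPA receptor subunit *Gria4*, at 95.7, 90.7, 92.6 and 106 CPM in *Kat6a*+/+ as against 213, 201, 243 and 206 CPM in *Kat6a*-/- NSPCs (log2 fold-change 1.16, SE 0.20, FDR 0.00185), and 3 fell, including *Grin2a* (−3.04). Without *Kat6a*+/+ replicate 1 or 3, 5 channels and 2 receptors were called higher, as were 5 channels without *Kat6a*-/- replicate 1 and 2 receptors without *Kat6a*+/+ replicate 4 or *Kat6a*-/- replicate 3 or 4. Without *Kat6a*+/+ replicate 4 or *Kat6a*-/- replicate 3, 1 receptor was called lower. Replication-dependent histones, whose mRNAs mostly lack the poly(A) tail by which libraries were made, had 3 genes higher and 2 lower of 38.

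The largest rises and falls cut across these groups. Among genes with a mean log2 CPM above 1 that were called in every fit without 1 library and had all *Kat6a*-/- libraries outside the *Kat6a*+/+ range, 617 rose and 940 fell. Beside *Cdkn2a*, *Adm* and *Ahnak2*, the largest rises included *Cdsn*, an adhesion protein of keratinised epithelium, at 2.14, 15.1, 3.56 and 2.25 CPM in *Kat6a*+/+ as against 77.4, 56.6, 43.3 and 46.3 CPM in *Kat6a*-/- NSPCs (log2 fold-change 3.71, SE 0.59, FDR 0.00131). *Thy1*, a surface protein of neurons and fibroblasts, was at 9.97, 4.98, 8.09 and 3.04 CPM in *Kat6a*+/+ as against 52.8, 32.4, 126 and 51.6 CPM in *Kat6a*-/- (log2 fold-change 3.26, SE 0.53, FDR 0.00153). *Anxa1*, an anti-inflammatory annexin, was at 3.18, 9.79, 2.99 and 1.33 CPM in *Kat6a*+/+ as against 86.1, 10.4, 61.6 and 33.9 CPM in *Kat6a*-/- (log2 fold-change 3.42, SE 0.73, FDR 0.00671), and *Kat6a*-/- replicate 2 only just exceeded *Kat6a*+/+ replicate 2. The neuropeptide precursor *Vgf* (3.19), the proteoglycan *Prelp* (3.11) and the X-linked *Tceal1* (3.30) were in the same group. *Tceal1* was at 2.74, 0.649, 2.84 and 0.208 CPM in *Kat6a*+/+ as against 5.79, 12.6, 16.9 and 14.9 CPM in *Kat6a*-/- NSPCs. The *Kat6a*+/+ library without Y-linked reads is replicate 2. Sex and genotype were partly confounded, so a part of sex in this rise cannot be told apart. The largest falls were *Cadps*, *Hes5*, *Eomes*, *Insm1*, *Myt1*, *Dll3*, *Ankle1*, *Kif14*, *Dcc* and *Pclaf*, given above.

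Markers of cells that a dorsal telencephalon culture could also hold were checked in all 8 libraries. Of 22 mesenchymal and meningeal markers, 13 were tested and 5 rose, with 4 to 6 called higher without 1 library and 2 with litter as a fixed term. Another was called lower, and among the fits without 1 library a gene was called lower only without *Kat6a*-/- replicate 2 or 4. Their summed level was 600 to 1169 CPM in *Kat6a*+/+ and 578 to 1835 CPM in *Kat6a*-/- NSPCs, and 7 of the 22 are also in the matrix or other lists. It was lowest in *Kat6a*-/- replicate 2, which also had the lowest list means of matricellular genes and collagens among *Kat6a*-/- libraries. Levels of single markers differed widely. *Dcn* lay at 0 to 0.961 CPM, *Lum* at 0 to 0.11 CPM and *Twist1* at 0 to 1.38 CPM in all 8 libraries. *Prrx1* was at 101, 102, 85.8 and 91 CPM in *Kat6a*+/+ as against 297, 119, 277 and 207 CPM in *Kat6a*-/- libraries (1.16, FDR 0.00517). *Foxc1* was at 24.9, 39.4, 25.3 and 20.7 CPM in *Kat6a*+/+ as against 83, 22.7, 69.3 and 51.3 CPM in *Kat6a*-/- libraries. Of the 13 tested markers, the log2 fold-change was above 0 for 11 and below 0 for 2. The part of these cells in the rise of matrix genes was not tested. Microglia and blood markers summed to 1 to 1.37 CPM in *Kat6a*+/+ and 0.962 to 1.62 CPM in *Kat6a*-/- NSPCs, with 7 of 16 at 0 in all 8 libraries. Endothelial markers summed to 47.9 to 75.3 and 12.6 to 39 CPM, most of it *Kdr*, while *Cldn5* was at 0 and *Pecam1* and *Cdh5* were at or under 0.541 CPM. Melanocyte and neural crest markers summed to 34.2 to 45.4 and 23.9 to 27.9 CPM, with *Dct*, a melanin enzyme also found in forebrain progenitors, at 1.04 to 7.46 CPM in *Kat6a*+/+ as against 0 to 0.513 CPM in *Kat6a*-/- NSPCs (−3.75, FDR 0.00146). Choroid plexus and ependyma markers had 0 of 6 tested genes called by limma, where 0 had an unadjusted p under 0.05, and by edgeR and DESeq2, where 1 had. They summed to 275.1 to 442.7 CPM in *Kat6a*+/+ and 246.6 to 521.5 CPM in *Kat6a*-/- NSPCs. Most of it was *Foxj1*, at 217 to 393 and 186 to 463 CPM. *Otx2* lay at 26.8 to 49.7 CPM and *Folr1* at 9.75 to 17.1 CPM across all 8 libraries, while *Ttr* was at 0 to 0.193 CPM.

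The count of called genes is shown for each setting, since single libraries and the litter term moved it.

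**Figure D4:**
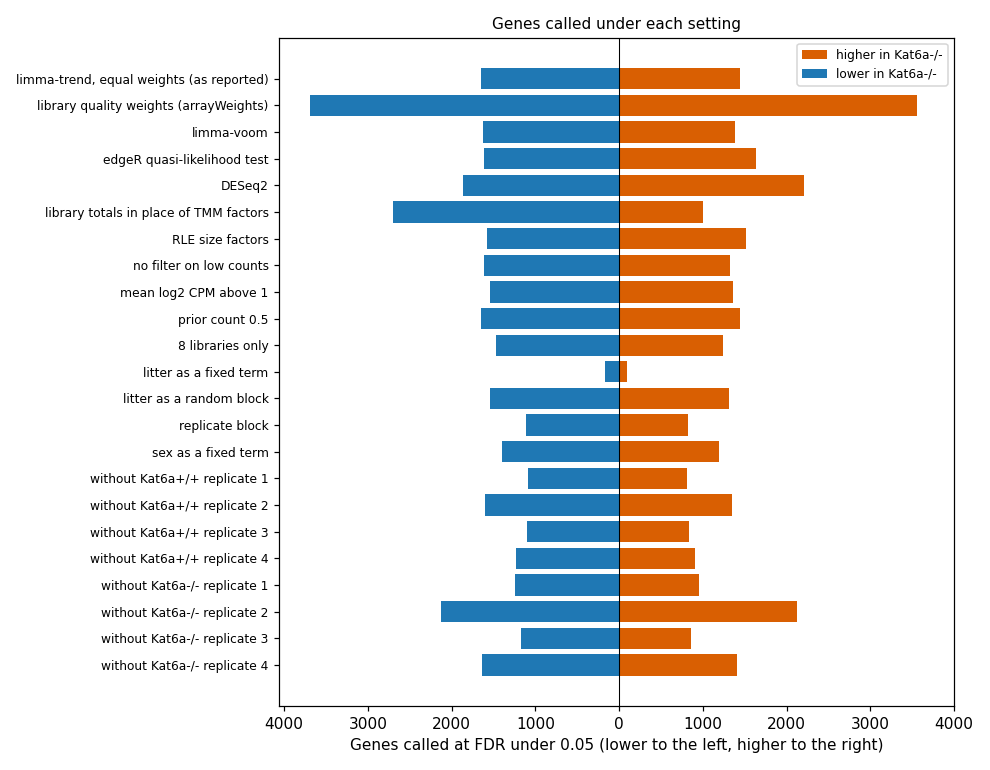
Number of genes called at an FDR under 0.05 (horizontal axis) as higher (orange, right) or lower (blue, left) in *Kat6a*-/- NSPCs in the fit reported here (top bar, 1447 and 1650 genes) and in 22 alternatives. Quality weights gave the most calls and litter as a fixed term the fewest (94 higher and 167 lower).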

How the data were processed

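Messenger RNA was sequenced from 12 differentiating NSPC libraries, each from a separate embryo per the labels (4 each of *Kat6a*+/+, *Kat6a*+/- and *Kat6a*-/-). From 200 ng of RNA per sample, stranded poly(A) libraries were made. The authors aligned reads to mm39 with Rsubread, counted them per gene with featureCounts and a strict RefSeq annotation, and deposited raw counts for 26411 genes. Software versions and the strand setting are not given in the sources used here.

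RefSeq gave a biotype for 26359 of them, matched on gene ID, and 21030 were protein-coding. Y-linked genes, *Xist*, unnamed genes and genes that failed filterByExpr of edgeR 4.0.16 were removed, which left 13339. Log2 CPM (prior count 2, TMM factors) were fitted with limma 3.58.1 (limma-trend, robust, equal library weights) and p-values adjusted by Benjamini-Hochberg. Unless stated otherwise, FDR, SE and log2 fold-change are from this fit. The study weighted libraries by quality. Here weights are an alternative, because the comparison was defined with equal library weights. With quality weights, 1 *Kat6a*-/- library would carry 69% of its group's weight and another 4.21%. DESeq2 1.42.0 and edgeR's quasi-likelihood test were further alternatives, all run in R 4.3.3. Scripts were tested on simulated data. The mean difference of a list in a library is the mean log2 CPM of its tested genes minus that of the *Kat6a*+/+ libraries.

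The members and the 53 gene lists were chosen with earlier results of these data known, so no test was run on a list. Genes were named by rule (*Kat6a*, the 10 largest rises and falls, the 3 smallest p-values and the most abundant gene of each list, and a set of listed genes). Other genes named, including *Ube2c*, *Gbp2*, *Bst2*, *Trp53*, *Mdm2*, *Neurog2*, *Neurod1*, the HOX genes and markers of other cell types, were chosen after their values were seen. Of the 10 largest rises 9 are given, and some genes that the rule names are not reported here. Proliferating libraries were not used here. Positions are from GENCODE vM39 (GRCm39), promoters from RefSeq (GRCm38.p6).

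Replicate numbers did not pair the samples. The correlations of deviations from the group means were −0.191, −0.331, 0.156 and −0.0335 for numbers 1 to 4. No 2 replicates were alike within sampling noise (lowest chi-square per degree of freedom 7.95). With 15914428 to 23692125 counts per library, 3 counts, the limit that a count of 0 allows, are 0.127 to 0.189 CPM of total counts.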

Additional observations from a re-analysis of the deposited data

Results flagged for a closer look

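In 564 groups of 4 libraries of 1 genotype (gene lists, reported genes and total counts), the highest or lowest library was compared with the nearest of the others. The gap, as a share of the range, exceeded Dixon's 95% critical value in 18 of these 564 groups. That was a smaller share than the about 5% that chance flags, so the flags are listed as a description only. Of the 18 flagged groups, 6 concerned *Kat6a*+/+ replicate 2, the *Kat6a*+/+ library without Y-linked reads. They were the SOXB1 and radial glia list (0.913), *Ahnak2* (0.933), *Vgf* (0.844), *Mrpl18* (0.834), *Ncl* (0.954) and *Spp1* (0.965). In *Kat6a*+/+ replicate 3, *Osmr* stood apart (0.85), and in replicate 4 *S100b* (0.857) and *Samhd1* (0.922).

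Among *Kat6a*-/- libraries, replicate 1 stood apart for *Nkd1* (0.872), *Mrps6* (0.944) and *Dkc1* (0.85), and replicate 2 for *Cbx6* (0.902), *Col6a1* (0.846) and *Pcdhgc3* (0.834). Replicate 3 did so for *Men1* (0.848), and replicate 4 for *Insm1* (0.891) and *Pcna* (0.877). For *Insm1*, the library that stood apart had the highest *Kat6a*-/- level, which still lay below all *Kat6a*+/+ libraries.

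HOX genes lie outside the tested genes because of their low counts. The 4 *Kat6a*-/- libraries held 233 HOX counts and the 4 *Kat6a*+/+ libraries 4.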

How the results depend on the processing

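Beside 3097 called genes, of which 46.7% were higher, quality weights gave 7258 genes (49.1% higher), litter as a fixed term 261 (36%) and the replicate block 1945 (42.6%). Replicate numbers did not pair the samples, and 0 *Kat6a*-/- libraries correlated best with the *Kat6a*+/+ library of their own number. Fits without 1 library gave 1903 to 4259 genes, 42.27 to 49.99% of them higher. The share higher was 50.4% with edgeR, 54.2% with DESeq2, 27% with library totals and 48.9% with RLE size factors. The other alternatives (voom, no or a stricter filter, a prior count of 0.5, the 8 libraries alone, litter as a random block, sex as a term) gave 2592 to 3090 genes. The causes were not tested.

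Of 184 named genes that were called, none reversed in any alternative that could be computed. Litter as a fixed term kept 45 calls, the replicate block 153, sex as a term 165 and fits without 1 library 150 to 178. Only 172 of them could be tested with the stricter filter, and all 172 kept their call. Many named genes were chosen for a small p-value or for calls in every fit without 1 library. How often they kept their sign or call was therefore partly fixed by that choice and does not describe other genes. With litter as a fixed term, 3 residual degrees of freedom remained, and 2865 genes had an unadjusted p under 0.05 (4909 without the term). Depth limits statements on genes near 0.127 to 0.189 CPM, the range that 3 counts span.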
